A study of Homo sapiens with 36 samples.

Results

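Integrin and laminin subunits were followed in human fibroblasts that were being converted toward neurons. The members are all genes whose symbol in the authors' tables names an integrin alpha chain, an integrin beta chain numbered 1 to 8, or a laminin alpha, beta or gamma chain numbered 1 to 5. The rule used symbols and no measured value. It found 38 of 23146 loci, made of 18 integrin alpha chains, 8 integrin beta chains, 5 laminin alpha chains, 4 laminin beta chains and 3 laminin gamma chains.

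RNA came from MRC-5 cells, an established human line of fetal lung fibroblasts, and 36 libraries form 12 groups of 3. All cells received a lentivirus at the same time. In GFP cells the virus carried GFP, and FD cells had this virus plus forskolin (10 µM), which activates adenylyl cyclase, and dorsomorphin (1 µM), which inhibits type I BMP receptors and AMPK. In N cells the virus carried HA-NEUROG2, a proneural basic helix-loop-helix factor, and NFD cells had that virus plus both molecules at those doses. Times were 0.5, 1 and 2 days after the molecules were added, called days post treatment (DPT). The characteristics given for GFP cells name DMEM with 15% FBS, whereas the treatment protocol puts all cells in neuron induction medium, so a change of medium and the treatments cannot be told apart in comparisons with GFP.

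Levels are the authors' FPKM (fragments scaled to transcript length and library size), which can be compared between genes. The files hold 1 FPKM per group of 3 libraries, so no error of a group is given, and the depth of the libraries is unknown. A subunit "rose" or "fell" where the authors' Cuffdiff q-value against GFP of the same time was at or under 0.05, the smallest deposited q-value being 0.000151. Values in threes run from 0.5 through 1 to 2 DPT. FD, N and NFD share the same 3 GFP libraries at each time, so their comparisons are not independent of each other. The targeted gene, NEUROG2, had an FPKM of 2616, 2565 and 2641 in N cells, 36.7, 18.5 and 15.3 in GFP cells and 12.7, 12.3 and 15.4 in FD cells, and NFD tables list it at 0 with a mark for too many fragments. All 10 fibroblast markers reached 1 FPKM, and their summed level was 7980 to 9910 FPKM in GFP cells.

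Integrins are cell surface receptors made of an alpha chain and a beta chain, and they tie the matrix outside the cell to actin inside it. The alpha chain largely sets the ligand: some bind collagens, some laminins, some the RGD motif of fibronectin and vitronectin, and others bind VCAM1 or tenascins. Laminins are trimers of an alpha, a beta and a gamma chain and build the basement membrane, on which neurons also extend axons. Fibroblasts are known for collagen and fibronectin receptors, whereas laminin receptors are prominent on epithelium, muscle and neurons.

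Members considered had an entry in the RefSeq promoter table and at least 1 FPKM in N or NFD cells at 1 and 2 DPT. Among members with an entry, this left out LAMB3, LAMB4 and ITGA2B, which were at least 2-fold apart at both times but under 1 FPKM there. LAMC3, also at least 2-fold apart and under 1 FPKM there, had no entry. Levels of 4 members, ITGA6, ITGA4, ITGB8 and LAMA2, lay at least 2-fold apart between NFD and N cells at both times. ITGB8 was under 1 FPKM in NFD cells. With 1 FPKM added to both levels its log2 ratio was -0.90 and -0.86, under 2-fold, whereas ITGA6, ITGA4 and LAMA2 stayed past 2-fold. The promoters of these 4 members are shown because NEUROG2 and the cyclic AMP factor CREB are both known to act through short DNA motifs. Each sequence holds the 250 bases before and the 50 bases after the annotated start on GRCh38.p14, plus strand, 5′ to 3′. Capitals mark the E-box CANNTG and the CREB core TGACG or CGTCA, searched on both strands; these windows are chr2:172427086-172427385 for ITGA6, chr2:181457136-181457435 for ITGA4, chr7:20330650-20330949 for ITGB8 and chr6:128882888-128883187 for LAMA2.
ITGA6: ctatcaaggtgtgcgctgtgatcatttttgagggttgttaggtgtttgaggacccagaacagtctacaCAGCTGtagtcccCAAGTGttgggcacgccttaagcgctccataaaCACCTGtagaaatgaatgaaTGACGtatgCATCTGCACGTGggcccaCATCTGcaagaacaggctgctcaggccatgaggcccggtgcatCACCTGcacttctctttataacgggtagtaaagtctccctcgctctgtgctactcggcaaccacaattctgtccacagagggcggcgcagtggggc
ITGA4: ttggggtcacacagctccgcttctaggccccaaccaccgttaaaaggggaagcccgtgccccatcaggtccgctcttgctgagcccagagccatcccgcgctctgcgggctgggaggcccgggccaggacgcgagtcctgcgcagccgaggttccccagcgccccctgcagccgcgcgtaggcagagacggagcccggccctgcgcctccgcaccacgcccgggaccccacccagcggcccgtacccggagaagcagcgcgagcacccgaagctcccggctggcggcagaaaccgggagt
ITGB8: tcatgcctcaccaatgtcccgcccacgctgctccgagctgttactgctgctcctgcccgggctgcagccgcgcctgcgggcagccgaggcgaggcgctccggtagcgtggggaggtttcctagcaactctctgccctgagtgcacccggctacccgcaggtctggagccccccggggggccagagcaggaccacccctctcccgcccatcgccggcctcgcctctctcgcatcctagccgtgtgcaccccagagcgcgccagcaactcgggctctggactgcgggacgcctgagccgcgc
LAMA2: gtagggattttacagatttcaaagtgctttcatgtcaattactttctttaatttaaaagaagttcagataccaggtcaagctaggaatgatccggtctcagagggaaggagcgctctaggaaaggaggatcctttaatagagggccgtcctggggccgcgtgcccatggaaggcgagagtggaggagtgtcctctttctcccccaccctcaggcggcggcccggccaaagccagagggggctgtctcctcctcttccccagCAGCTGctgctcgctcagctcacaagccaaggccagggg
The ITGA6 window held 7 E-boxes, of which 2 read CATCTG and 1 read CAGCTG, and 1 CREB core. RefSeq lists another ITGA6 start, not shown, whose window at chr2:172427336-172427635 held 2 E-boxes, of which 1 read CAGCTG and 0 read CATCTG, and 1 CREB core. LAMA2 held 1 E-box, CAGCTG, and the ITGA4 and ITGB8 windows held none of these letters. Among 35116 RefSeq promoters of the same length, 68.7% held CANNTG, 14.7% held CAGATG or CATCTG, 17.9% held CAGCTG and 24.6% held the CREB core. The longer site TGACGTCA was in 1.85% of promoters and in 0 of the 33 windows available for 26 members. These matches describe letters and are not binding sites that were measured.

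Of the 38 members, 26 were called in at least 1 of the 9 comparisons. The same share over all genes was not computed, and 36.6% to 66.1% of all tested genes were called in a single comparison. In at least 1 group, 25 members reached 1 FPKM. The members outside those 25 stayed under 1 FPKM in all groups. Among these were the leukocyte chains ITGAD, ITGAL, ITGAM, ITGAX and ITGB2, the platelet chain ITGA2B, the epithelial chains ITGB4, ITGB6 and LAMA3, and ITGB7, LAMB4 and LAMC3. The authors tested a locus only where it held enough data, and 11 members were tested at no time in any comparison. A member near 0 in GFP cells entered the test only where the other group was high, as with ITGA9 in N and NFD cells, so counts over tested members are descriptions.

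In FD cells, rises numbered 5, 5 and 3 and falls 6, 9 and 13 among 23, 24 and 23 tested members, and 36.6%, 38.3% and 38.5% of all tested genes were called. Of all tested genes in FD cells, 17.8%, 16.0% and 16.9% rose and 18.8%, 22.3% and 21.6% fell. In N cells, rises numbered 8, 7 and 8 and falls 11, 13 and 12 among 25 tested members, and 50.5%, 54.7% and 57.1% of all tested genes were called. There 26.2%, 25.4% and 27.1% of all tested genes rose and 24.3%, 29.3% and 30.0% fell. In NFD cells, rises numbered 7, 7 and 8 and falls 13, 14 and 15 among 24, 27 and 27 tested members, and 63.4%, 65.8% and 66.1% of all tested genes were called. There 32.1%, 32.6% and 34.1% of all tested genes rose and 31.3%, 33.2% and 32.0% fell. Among members, falls outnumbered rises in every comparison. Over all tested genes they did so except in N cells at 0.5 DPT and in NFD cells at 0.5 and 2 DPT. The median log2 fold change of tested members in the authors' deposited tables was -0.15, -0.23 and -0.35 in FD cells, -0.24, -0.43 and -0.22 in N cells and -0.50, -0.46 and -0.58 in NFD cells. Over all tested genes it lay between -0.04 and 0.04. With a minimum change of 2-fold, 1, 5 and 6 members were called in FD cells, 9, 12 and 12 in N cells, and 10, 14 and 15 in NFD cells. In bulk RNA, fewer cells of a type and less RNA per cell cannot be told apart. Whether a group's libraries come from separate cultures is not given by the labels.

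**Figure D1:**
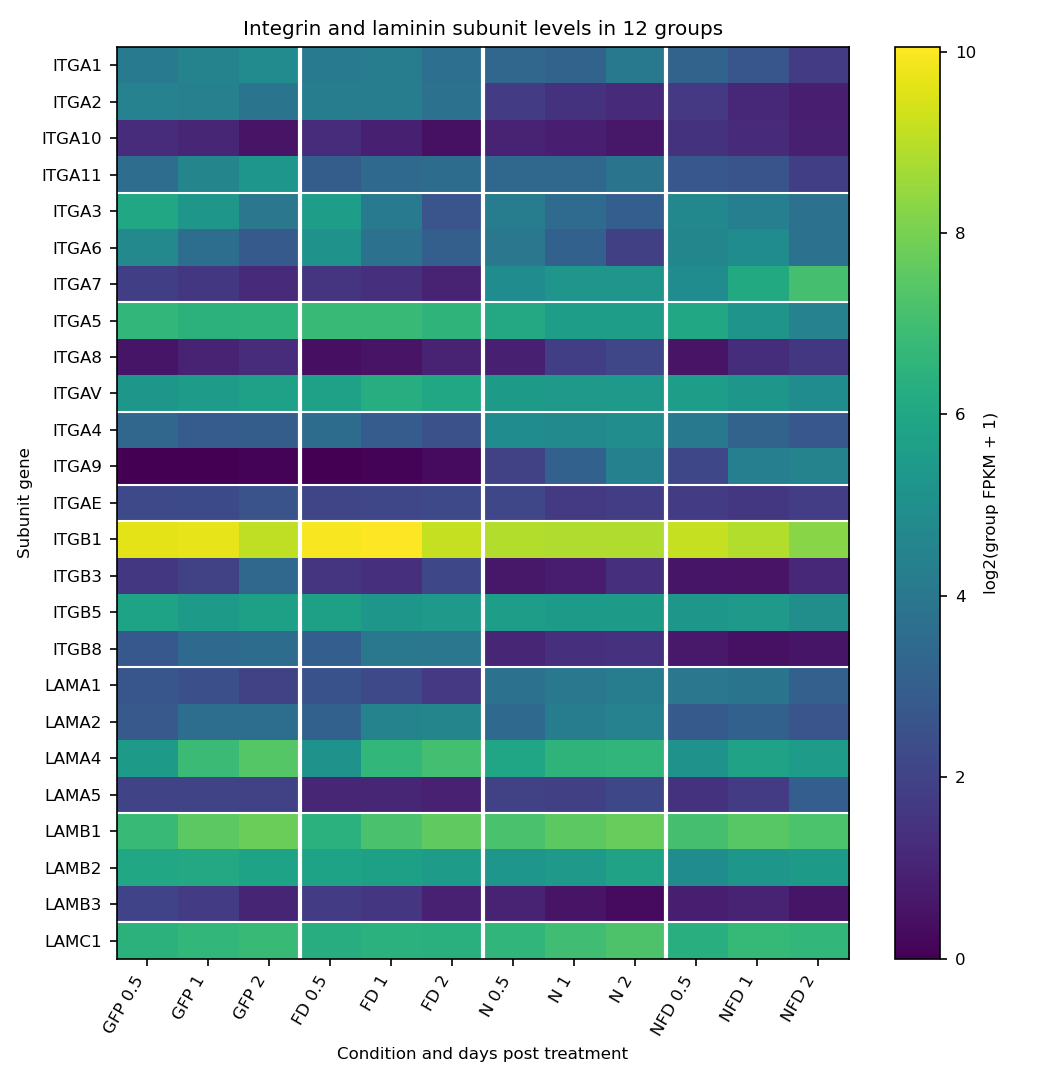
Group FPKM of the 25 subunits that reached 1 FPKM, as log2(FPKM + 1) by colour, with genes in rows ordered by role and the 12 groups in columns (condition and DPT). ITGB1 has the brightest row, at 304 to 1060 FPKM, and ITGA7 and ITGA9 are bright only in the N and NFD columns.

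The receptor chains for laminin are ITGA3, ITGA6 and ITGA7. ITGA7, the laminin receptor chain best known from skeletal muscle (GRCh37 chr12:56075329-56106089), stood at 2.63, 2.06 and 1.36 FPKM in GFP cells, 1.89, 1.65 and 1.01 in FD cells, 28.8, 36.7 and 36.5 in N cells and 28.5, 68.1 and 135 in NFD cells. All N and NFD values lay above all GFP and FD values, and the NFD level climbed over time whereas the N level was nearly flat after 1 DPT. ITGA7 rose by 3.45, 4.16 and 4.75 on the log2 scale in N cells and by 3.44, 5.05 and 6.64 in NFD cells in the authors' deposited tables (q = 0.000151 each). In FD cells it fell at 0.5 and 2 DPT, with log2 fold changes of -0.48 and -0.42 in the authors' deposited tables. It made up 0.529% of the summed FPKM of all integrin alpha chains in GFP cells at 2 DPT, 16.3% in N cells and 54.2% in NFD cells. Of 5 skeletal muscle markers, 2 reached 1 FPKM in some group, and their summed level was 0.468 to 2.19 FPKM in GFP cells, 0.647 to 1.87 in FD cells, 2.82 to 4.82 in N cells and 2.11 to 5.11 in NFD cells. The highest muscle marker was DES at 4.07 FPKM. MYOD1 and MYOG were at 0 in all FD groups, but each was above 0 in at least 1 GFP group, 1 N group and 1 NFD group. In N cells the 1 muscle marker tested rose at each time. In NFD cells 2 of 2, 1 of 1 and 1 of 2 tested muscle markers rose, and in FD cells the 1 tested was not called. The part of such RNA in the ITGA7 result was not tested. The locus overlaps that of METTL7B, which reached 1.26 FPKM.

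ITGA6, a laminin receptor chain of epithelium and of neural stem cells (GRCh37 chr2:173292313-173371181), whose promoter is shown above, stood at 25.5, 11.4 and 6.16 FPKM in the GFP groups and 35.0, 12.9 and 7.30 in FD cells. N cells had 14.8, 7.72 and 2.70 FPKM and NFD cells 23.4, 28.5 and 12.8. The N value was the lowest of the 4 conditions at each time, and the NFD value was the highest at 1 and 2 DPT. ITGA6 fell in N cells by 0.78, 0.56 and 1.19 on the log2 scale and rose in NFD cells by 1.33 at 1 DPT and 1.06 at 2 DPT in the authors' deposited tables (q = 0.000151 each). At 0.5 DPT the NFD log2 fold change of -0.13 in the authors' deposited table did not pass (q = 0.34), and in FD cells only the rise of 0.46 at 0.5 DPT passed.

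ITGA3, the laminin receptor chain most abundant in GFP cells at 0.5 DPT, declined with time in all conditions. It stood at 63.9, 39.3 and 14.8 FPKM in GFP cells, 48.3, 16.8 and 5.25 in FD cells, 17.6, 10.5 and 6.99 in N cells and 25.2, 19.2 and 13.0 in NFD cells. FD was the nearest to GFP at 0.5 DPT and the lowest at 2 DPT, while the NFD level at 2 DPT was near that of GFP. The authors' deposited tables give log2 fold changes, all called, of -0.41, -1.23 and -1.5 in FD cells and -1.86, -1.90 and -1.08 in N cells. In NFD cells the falls at 0.5 and 1 DPT passed (-1.34 and -1.03), and the value of -0.19 at 2 DPT in the authors' deposited table did not (q = 0.146). The laminin receptor chains together made up 31.1%, 20.0% and 8.66% of the summed alpha chain FPKM in GFP cells, 27.7%, 11.5% and 6.32% in FD cells, 26.9%, 26.9% and 20.6% in N cells and 33.9%, 49.2% and 64.6% in NFD cells. The share thus shrank over time in GFP and FD cells and grew in NFD cells, with ITGA7 as the main chain of the NFD share.

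**Figure D2:**
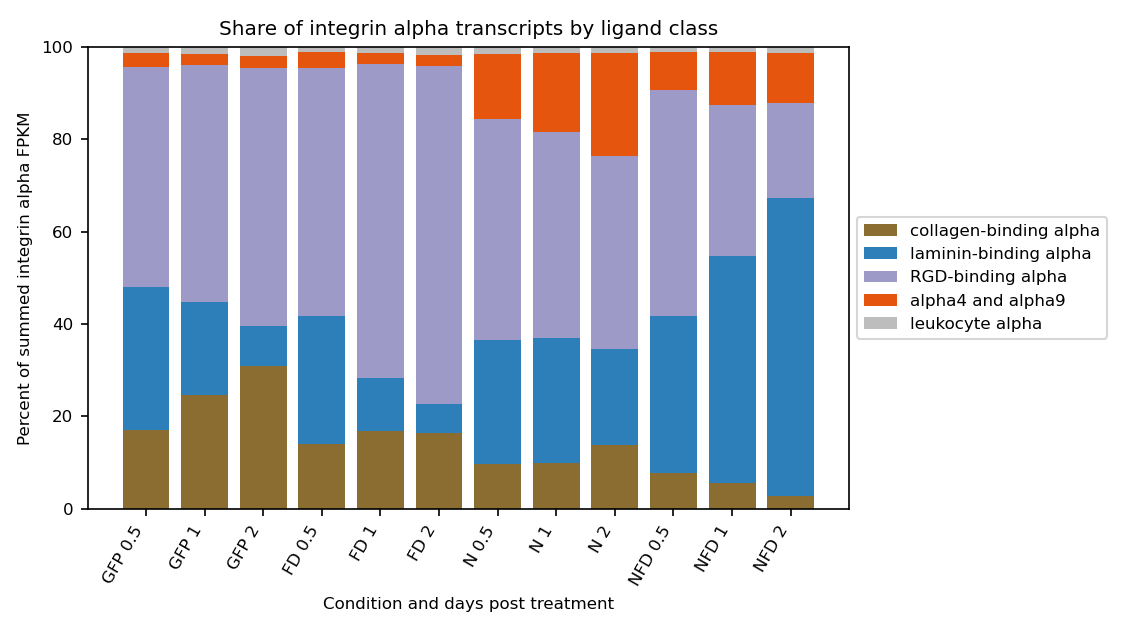
Share of each ligand class in the summed FPKM of the 18 integrin alpha chains, in percent (y axis), for the 12 groups (x axis). The laminin-binding class grows to 64.6% in NFD cells at 2 DPT while the collagen-binding class shrinks to 2.66%, and the class of alpha 4 and alpha 9 is largest in N cells, at 22.2% at 2 DPT.

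The collagen receptor chains ITGA1, ITGA2, ITGA10 and ITGA11, pair with beta 1, and 3 of the 4 fell in NFD cells at each time. ITGA11, a receptor for fibrillar collagen on fibroblasts (GRCh37 chr15:68594041-68724492), stood at 11.2, 22.8 and 38.4 FPKM in GFP cells, 6.72, 9.68 and 10.6 in FD cells, 9.41, 9.67 and 13.7 in N cells and 5.67, 5.18 and 2.60 in NFD cells. It climbed in GFP cells with time and was lowest in NFD cells at every time. In the authors' deposited tables ITGA11 fell, with log2 fold changes of -0.73, -1.24 and -1.86 in FD cells and -0.98, -2.14 and -3.88 in NFD cells. In N cells it fell by 1.24 and 1.48 on that scale at 1 and 2 DPT, and -0.25 at 0.5 DPT did not pass in the authors' deposited table (q = 0.0556).

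ITGA1, a receptor chain for basement membrane collagen, stood at 17.1, 21.4 and 27.6 FPKM in GFP cells, 16.4, 17.6 and 11.6 in FD cells, 8.99, 8.26 and 15.7 in N cells and 8.10, 5.53 and 2.40 in NFD cells. N and NFD values were alike at 0.5 DPT and parted by 2 DPT, when N was nearer to GFP and NFD was at its lowest. ITGA1 fell with log2 fold changes of -0.92, -1.38 and -0.82 in N cells and -1.07, -1.95 and -3.52 in NFD cells in the authors' deposited tables, and in FD cells it fell at 2 DPT only (-1.24). The ITGA1 locus contains PELO, which reached 31.8 FPKM, and whether counting used strand is not given in the sources used here.

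ITGA2, a receptor chain for collagen and laminin, stood at 20.8, 19.6 and 13.5 FPKM in GFP cells, 18.4, 17.8 and 12.5 in FD cells, 2.47, 1.77 and 1.28 in N cells and 2.19, 1.16 and 0.807 in NFD cells. Every N and NFD value lay below every GFP and FD value. ITGA2 fell, with log2 fold changes of -3.07, -3.47 and -3.40 in N cells and -3.25, -4.08 and -4.06 in NFD cells in the authors' deposited tables (q = 0.000151 each), and no FD value passed. ITGA10, a collagen chain best known from cartilage, was low, with 1.39, 1.10 and 0.462 FPKM in GFP cells, 1.41, 0.823 and 0.373 in FD cells, 1.02, 0.814 and 0.556 in N cells and 1.74, 1.32 and 0.820 in NFD cells. NFD had its highest level at each time. ITGA10 rose in NFD cells by 0.32 and 0.83 on the log2 scale at 0.5 and 2 DPT in the authors' deposited tables (q = 0.0432 and 0.000151), and it fell in N cells at 0.5 and 1 DPT and in FD cells at 1 DPT. The collagen receptor chains together made up 17.0%, 24.7% and 31% of alpha chain FPKM in GFP cells, 14%, 16.9% and 16.4% in FD cells, 9.60%, 10.0% and 13.9% in N cells and 7.78%, 5.60% and 2.66% in NFD cells.

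**Figure D3:**
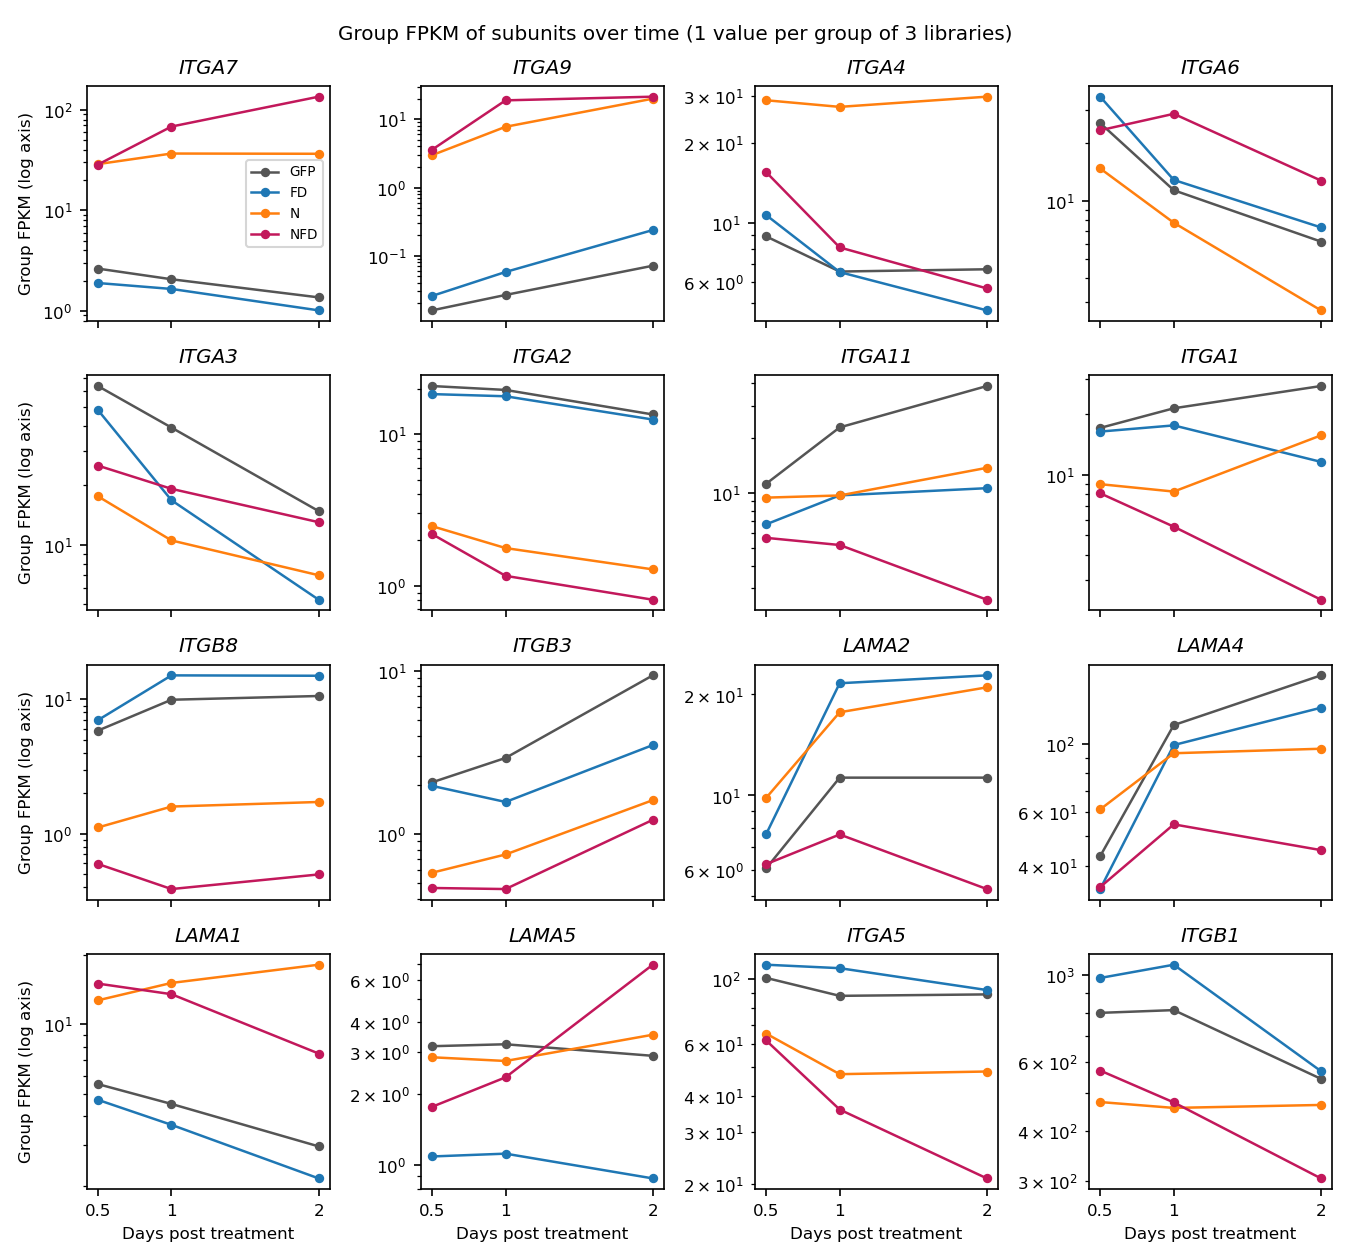
Group FPKM (log axis) against days post treatment for subunits chosen after their values were seen, 1 line per condition and 1 point per group of 3 libraries, with a scale of its own in each panel. ITGA7 and ITGA9 lie high in N and NFD cells, ITGA2 and ITGB8 lie low in them, and the N and NFD lines of ITGA4, ITGA6 and LAMA2 draw apart by 2 DPT.

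The alpha chains that bind RGD ligands were the most abundant class in GFP cells. ITGA5, the fibronectin receptor chain (GRCh37 chr12:54789044-54813050), stood at 101, 87.7 and 88.7 FPKM in GFP cells, 112, 109 and 91.8 in FD cells, 65.2, 47.4 and 48.4 in N cells and 61.8, 35.9 and 20.9 in NFD cells. FD values were the highest and NFD values the lowest at each time. ITGA5 fell, with log2 fold changes of -0.63, -0.89 and -0.88 in N cells and -0.70, -1.29 and -2.09 in NFD cells in the authors' deposited tables (q = 0.000151 each), and rose in FD cells at 1 DPT only, by 0.31 (q = 0.0145).

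ITGAV, the chain of vitronectin receptors and of integrins that release TGF-beta from its latent form, stood at 39.4, 46.1 and 53.2 FPKM in GFP cells, 52.3, 75.8 and 64.0 in FD cells, 43.4, 41.2 and 42.5 in N cells and 48.9, 39.3 and 28.5 in NFD cells. FD cells had the highest level at each time. In the authors' deposited tables ITGAV rose in FD cells by 0.41, 0.72 and 0.27 on the log2 scale (q = 0.000559, 0.000151 and 0.0344). In NFD cells it rose by 0.31 at 0.5 DPT and fell by 0.90 at 2 DPT in the authors' deposited tables, and in N cells it fell at 2 DPT only, by 0.32. ITGA8, a receptor chain for nephronectin, was low, with 0.475, 0.924 and 1.39 FPKM in GFP cells, 0.318, 0.440 and 0.941 in FD cells, 0.839, 2.62 and 3.40 in N cells and 0.428, 1.46 and 2.12 in NFD cells. N cells had the highest ITGA8 level at each time. ITGA8 rose in N cells by 0.82, 1.5 and 1.29 on the log2 scale and in NFD cells by 0.66 and 0.61 at 1 and 2 DPT in the authors' deposited tables, and fell in FD cells at those times. The RGD class made up 47.5%, 51.3% and 55.7% of alpha chain FPKM in GFP cells, 53.7%, 67.9% and 73.2% in FD cells, 48.0%, 44.6% and 42.0% in N cells and 48.9%, 32.6% and 20.6% in NFD cells.

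Alpha 4 and alpha 9 are related chains that bind VCAM1 and other ligands. ITGA9, also a tenascin C receptor chain that aids axon growth in rats (GRCh37 chr3:37493812-37861281), stood at 0.0158, 0.0266 and 0.0713 FPKM in GFP cells, 0.0257, 0.0578 and 0.238 in FD cells, 2.98, 7.78 and 20.1 in N cells and 3.58, 19.0 and 21.5 in NFD cells. It was near 0 without NEUROG2 and reached like levels in N and NFD cells at 2 DPT, with NFD ahead at 1 DPT. ITGA9 rose in N cells with q = 0.0172, 0.00596 and 0.000151, and log2 fold changes of 7.56, 8.19 and 8.14, in the authors' deposited tables. In NFD cells the log2 fold changes in the authors' deposited tables were 7.82, 9.48 and 8.23. These folds rest on GFP levels near 0, and FD cells were not tested.

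ITGA4, a chain of the VCAM1 receptor, found on neural crest cells in mouse embryos (GRCh37 chr2:182321618-182521834), stood at 8.90, 6.57 and 6.70 FPKM in GFP cells, 10.7, 6.54 and 4.70 in FD cells, 28.8, 27.2 and 29.7 in N cells and 15.5, 8.09 and 5.68 in NFD cells. The N level was flat and highest at each time, whereas the NFD level started between N and GFP and ended below GFP. In N cells ITGA4 rose by 1.69, 2.05 and 2.15 on the log2 scale in the authors' deposited tables (q = 0.000151 each). In NFD cells it rose by 0.80 and 0.30 at 0.5 and 1 DPT, and -0.24 at 2 DPT did not pass in the authors' deposited table (q = 0.0898). In FD cells it rose at 0.5 DPT, by 0.27, and fell at 2 DPT, by 0.51, in the authors' deposited tables. Its locus overlaps that of CERKL, which reached 2.84 FPKM. Alpha 4 and alpha 9 together made up 3.02%, 2.51% and 2.63% of alpha chain FPKM in GFP cells, 3.5%, 2.42% and 2.30% in FD cells, 13.9%, 17.1% and 22.2% in N cells and 8.38%, 11.5% and 10.9% in NFD cells.

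Of the leukocyte chains, only ITGAE, which on T cells binds E-cadherin, reached 1 FPKM. It stood at 3.61, 3.73 and 5.00 FPKM in GFP cells, 3.25, 3.40 and 3.66 in FD cells, 3.36, 2.31 and 2.51 in N cells and 2.32, 2.1 and 2.51 in NFD cells. It was highest in GFP cells at every time. ITGAE fell in NFD cells by 0.64, 0.83 and 1.00 on the log2 scale in the authors' deposited tables. It also fell in N cells at 1 and 2 DPT, by 0.69 and 0.99, and in FD cells at 2 DPT, by 0.45, in the authors' deposited tables. Its usual partner ITGB7 was at most 0.177 FPKM, and the ITGAE locus overlaps that of GSG2, which reached 2.1 FPKM. Among blood markers only CD68 reached 1 FPKM, and CD3E was at 0 in all groups.

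Among beta chains, ITGB1, the partner of most alpha chains (GRCh37 chr10:33189245-33247293), was the most abundant member in all groups. It stood at 800, 813 and 544 FPKM in GFP cells, 981, 1060 and 569 in FD cells, 475, 459 and 467 in N cells and 571, 474 and 304 in NFD cells. FD levels were highest at each time, and the NFD level at 2 DPT was the lowest of all. ITGB1 fell, with log2 fold changes of -0.49, -0.78 and -0.84 in NFD cells and -0.75 and -0.83 in N cells at 0.5 and 1 DPT in the authors' deposited tables, and rose in FD cells at 1 DPT by 0.38 (q = 0.0101). Its FPKM was 2.74, 3.14 and 2.16 times the summed FPKM of its 12 partner alpha chains in GFP cells and 3.23, 3.94 and 2.71 times in FD cells. The ratio was 2.12, 2.27 and 2.11 in N cells and 2.54, 2.04 and 1.23 in NFD cells.

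ITGB8, which joins alpha V to activate latent TGF-beta (GRCh37 chr7:20370724-20455382), stood at 5.85, 9.94 and 10.6 FPKM in GFP cells, 7.0, 15.1 and 15.0 in FD cells, 1.11, 1.59 and 1.72 in N cells and 0.594, 0.386 and 0.496 in NFD cells. The conditions kept the same order at each time, from FD through GFP and N to NFD. ITGB8 rose in FD cells by 0.26, 0.60 and 0.51 on the log2 scale, of which that at 0.5 DPT lay just inside the threshold (q = 0.0498), in the authors' deposited tables. It fell with log2 values of -2.40, -2.64 and -2.62 in N cells and -3.30, -4.69 and -4.41 in NFD cells in the authors' deposited tables. ITGB3, which joins alpha V as a vitronectin receptor, stood at 2.07, 2.92 and 9.35 FPKM in GFP cells, 1.97, 1.57 and 3.5 in FD cells, 0.579, 0.749 and 1.61 in N cells and 0.467, 0.460 and 1.22 in NFD cells. It was highest in GFP and lowest in NFD cells at each time, and in each condition its highest level was at 2 DPT. ITGB3 fell, with log2 fold changes of -1.84, -1.96 and -2.54 in N cells, -2.15, -2.66 and -2.93 in NFD cells and -0.89 and -1.42 at 1 and 2 DPT in FD cells in the authors' deposited tables.

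ITGB5, another alpha V partner, stood at 55.6, 43.8 and 51.0 FPKM in GFP cells, 50.8, 39.1 and 41.8 in FD cells, 47.1, 43.4 and 44.1 in N cells and 39.1, 42.8 and 30.3 in NFD cells. All values lay between 30.3 and 55.6 FPKM, and no N value passed. ITGB5 fell, with log2 fold changes of -0.51 and -0.75 in NFD cells at 0.5 and 2 DPT and -0.29 in FD cells at 2 DPT, in the authors' deposited tables.

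**Figure D4:**
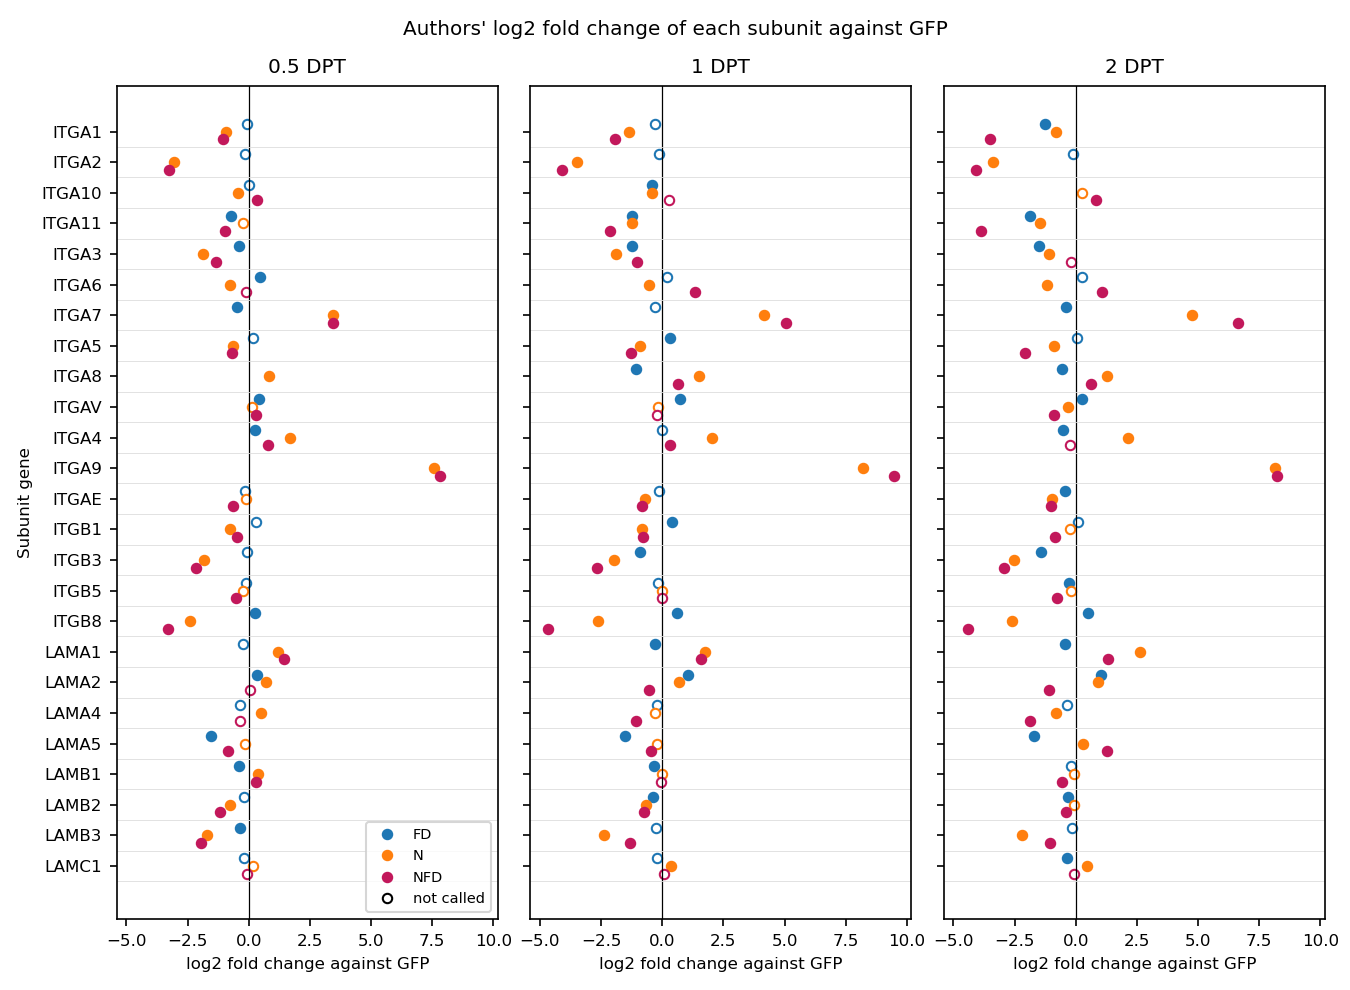
The authors' log2 fold change against GFP (x axis) for the 25 subunits that reached 1 FPKM (rows), in 1 panel per time; filled points were called at a q-value at or under 0.05, open points were not, and untested values are left out. ITGA9 and ITGA7 lie farthest to the right, and ITGB8 and ITGA2 lie far to the left in N and NFD cells.

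On the ligand side, the laminin alpha chains carry the main binding sites for integrins. LAMA2, the chain of muscle and Schwann cell basement membranes (GRCh37 chr6:129204285-129837710), stood at 6.06, 11.3 and 11.3 FPKM in GFP cells, 7.66, 21.6 and 22.8 in FD cells, 9.83, 17.7 and 21.0 in N cells and 6.24, 7.65 and 5.26 in NFD cells. At 1 and 2 DPT the FD and N levels lay above GFP and the NFD level lay below it. In the authors' deposited tables LAMA2 rose by 0.34, 1.05 and 1.02 on the log2 scale in FD cells and by 0.70, 0.68 and 0.90 in N cells. In NFD cells it fell by 0.54 and 1.10 at 1 and 2 DPT in the authors' deposited tables (q = 0.000151 each). At 1 DPT these deposited fold changes differ from the log2 ratio of the listed FPKM by 0.1 in the FD table and by 0.023 in the N and NFD tables of the authors, with the same direction.

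LAMA1, the chain of early embryonic basement membranes (GRCh37 chr18:6941742-7117813), stood at 5.52, 4.53 and 2.97 FPKM in GFP cells, 4.72, 3.68 and 2.16 in FD cells, 12.7, 15.1 and 18.1 in N cells and 15.0, 13.5 and 7.48 in NFD cells. N and NFD lay above GFP and FD at each time, with the N level climbing and the NFD level declining. LAMA1 rose by 1.2, 1.74 and 2.61 on the log2 scale in N cells and by 1.44, 1.57 and 1.33 in NFD cells in the authors' deposited tables (q = 0.000151 each). In FD cells it fell by 0.30 and 0.46 at 1 and 2 DPT in the authors' deposited tables.

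LAMA4, a chain of vessel and mesenchymal laminins, was the most abundant laminin alpha chain in all groups, with 43.0, 115 and 167 FPKM in GFP cells, 33.6, 99.0 and 131 in FD cells, 61.1, 93.1 and 96.3 in N cells and 34.1, 54.6 and 45.0 in NFD cells. Levels were higher at 1 than at 0.5 DPT in all conditions, and NFD was lowest at 1 and 2 DPT. LAMA4 fell in NFD cells by 1.08 and 1.89 on the log2 scale at 1 and 2 DPT in the authors' deposited tables. In N cells it rose by 0.51 at 0.5 DPT (q = 0.0279) and fell by 0.80 at 2 DPT in the authors' deposited tables, and no FD value passed.

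LAMA5, a chain of epithelial and vascular laminins, stood at 3.16, 3.22 and 2.88 FPKM in GFP cells, 1.09, 1.12 and 0.882 in FD cells, 2.84, 2.74 and 3.53 in N cells and 1.76, 2.34 and 6.94 in NFD cells. FD was lowest at each time, and NFD went from below GFP to the highest value of all at 2 DPT. It fell by 1.54, 1.53 and 1.71 on the log2 scale in FD cells in the authors' deposited tables (q = 0.000151 each). In NFD cells LAMA5 fell by 0.85 and 0.46 and then rose by 1.27 at 2 DPT in the authors' deposited tables. In N cells it rose at 2 DPT only, by 0.29 (q = 0.0268), in the authors' deposited table. It made up 10.7% of laminin alpha chain FPKM in NFD cells at 2 DPT and 1.56% in GFP cells, against 69.5% and 90.6% for LAMA4. Endothelial markers, which could share this chain, summed to 4.82 to 19.7 FPKM in GFP cells, 7.86 to 19.7 in FD cells, 2.60 to 4.00 in N cells and 6.91 to 11.8 in NFD cells, with CDH5 and ERG at 0 in all GFP groups. TEK made up 19.0 FPKM of the GFP sum at 2 DPT and fell in NFD cells, where it stood at 0.323 FPKM. The other endothelial markers tested in NFD cells at 2 DPT, PECAM1, CDH5, VWF, TIE1, CLDN5 and ESAM, all rose, to between 0.630 and 2.60 FPKM. At 0.5 and 1 DPT, when LAMA5 fell in NFD cells, 3 and 5 of 6 tested endothelial markers rose there and 1 fell. Epithelial markers summed to at most 0.898 FPKM in any group. The part of such RNA in the LAMA5 result was not tested.

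Beta and gamma chains complete the trimer. LAMB1, the beta chain of most embryonic laminins, stood at 109, 180 and 220 FPKM in GFP cells, 83.8, 143 and 193 in FD cells, 143, 180 and 211 in N cells and 136, 173 and 147 in NFD cells. NFD was lowest at 2 DPT and FD at 0.5 and 1 DPT. LAMB1 rose at 0.5 DPT by 0.38 on the log2 scale in N cells and 0.31 in NFD cells, and fell in NFD cells by 0.58 at 2 DPT, in the authors' deposited tables. In FD cells it fell by 0.39 and 0.33 at 0.5 and 1 DPT in the authors' deposited tables.

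LAMB2, the beta chain of synaptic and glomerular basement membranes, stood at 63.6, 65.6 and 56.2 FPKM in GFP cells, 56.0, 51.1 and 44.9 in FD cells, 37.6, 40.8 and 53.8 in N cells and 28.5, 38.6 and 43.0 in NFD cells. NFD was lowest throughout, and its distance from GFP narrowed with time. LAMB2 fell, with log2 fold changes of -1.16, -0.76 and -0.39 in NFD cells and -0.76 and -0.68 in N cells at 0.5 and 1 DPT, in the authors' deposited tables. In FD cells it fell by 0.36 and 0.32 on the log2 scale at 1 and 2 DPT in the authors' deposited tables (q = 0.00338 and 0.00921). LAMB3, a chain of the laminin that anchors skin epithelium, stood at 3.08, 2.36 and 1.03 FPKM in GFP cells, 2.42, 2.00 and 0.917 in FD cells, 0.935, 0.451 and 0.223 in N cells and 0.799, 0.942 and 0.491 in NFD cells. Its N and NFD values all lay below its GFP values. LAMB3 fell, with log2 fold changes of -1.72, -2.39 and -2.20 in N cells and -1.94, -1.32 and -1.07 in NFD cells in the authors' deposited tables. In FD cells LAMB3 fell at 0.5 DPT only, with a log2 fold change of -0.35 in the authors' deposited table (q = 0.0189).

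LAMC1, the gamma chain of nearly all laminins, stood at 86.1, 98.9 and 107 FPKM in GFP cells, 76.3, 85.2 and 82.6 in FD cells, 97.5, 125 and 149 in N cells and 80.9, 105 and 100 in NFD cells. N was highest at each time. LAMC1 rose in N cells by 0.34 and 0.47 on the log2 scale at 1 and 2 DPT (q = 0.00871 and 0.000559) and fell in FD cells by 0.38 at 2 DPT in the authors' deposited tables, and no NFD value passed. LAMC3, a gamma chain whose loss disturbs the human cerebral cortex, had 0.0129, 0.0112 and 0.0145 FPKM in the GFP groups, 0.292, 0.244 and 0.207 in N cells and 0.399, 0.684 and 0.782 in NFD cells. All N and NFD values of LAMC3 lay above all GFP values, but q was 0.0759 for NFD cells at 1 and 2 DPT in the authors' deposited tables and the other comparisons were not tested.

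What the molecules added to NEUROG2 was read from the ratio of NFD to N levels, for which the authors' tables hold no test. Among members with at least 1 FPKM in N or NFD cells, 0 of 22 lay 2-fold apart at 0.5 DPT. At 1 DPT, 2 of 23 were at least 2-fold higher and 3 at least 2-fold lower in NFD cells, and at 2 DPT 2 were higher and 8 lower. Of all genes with such levels, 4.1%, 6.54% and 9.67% were at least 2-fold higher and 5.81%, 8.18% and 8.13% at least 2-fold lower at the 3 times. ITGA6 was higher by 1.89 and 2.25 on the log2 scale of FPKM ratios at 1 and 2 DPT, ITGA7 by 1.89 at 2 DPT and ITGA9 by 1.29 at 1 DPT. At 2 DPT the log2 ratio was -2.71 for ITGA1, -2.40 for ITGA11, -1.21 for ITGA5, -2.39 for ITGA4, -1.79 for ITGB8, -1.28 for LAMA1, -1.99 for LAMA2 and -1.10 for LAMA4. At 2 DPT the 8 lower chains were thus receptor chains for collagen and fibronectin, ITGA4, ITGB8 and 3 laminin alpha chains. With 1 FPKM added to both levels the ITGB8 value at 2 DPT was -0.86, under 2-fold. Both higher chains were laminin receptor chains, but they were only 2 of 23 members, beside 9.67% of all genes. At 1 DPT the higher chains were ITGA6 and ITGA9. For ITGA6 and ITGA7 the FD change against GFP at 2 DPT was 0.24 (not called) and -0.42 in the authors' deposited table, and for LAMA2 it was 1.02. Summed fibroblast markers, which include collagens, were 5720 to 5860 FPKM in FD cells, 6140 to 6210 in N cells and 1370 to 4270 in NFD cells. Summed neuron markers were 2.51 to 2.82 FPKM in GFP cells, 5.83 to 23.6 in FD cells, 2.53 to 10.9 in N cells and 4.87 to 19.1 in NFD cells. The highest neuron marker in any group was SNAP25, at 20.6 FPKM, so 1 gene can make up most of such a sum. Of the 7 neuron markers, 1 of 2, 1 of 2 and 2 of 3 tested rose in FD cells. In N cells 0 of 2, 3 of 3 and 3 of 4 tested rose. In NFD cells 2 of 2, 3 of 3 and 3 of 4 did. Whether shifts in fibroblast and neuron markers moved the subunits was not tested.

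**Figure D5:**
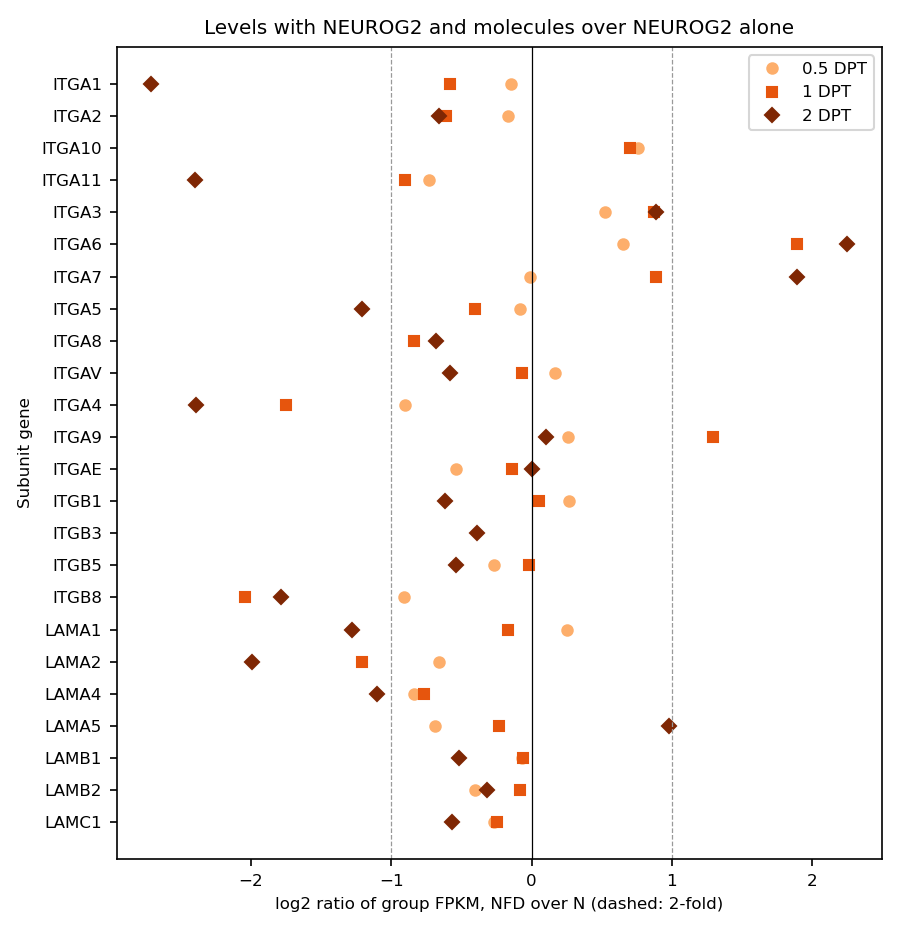
Log2 ratio of group FPKM in NFD over N cells (x axis) for subunits with at least 1 FPKM in N or NFD cells (rows), with 1 symbol per time and dashed lines at 2-fold. No point passes a dashed line at 0.5 DPT; at 2 DPT ITGA6 and ITGA7 lie to the right of it and 8 subunits to the left.

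Within a condition, levels at 2 DPT were set against 0.5 DPT with no test. In GFP cells ITGA11, ITGA8, ITGB3, LAMA4 and LAMB1 were at least 2-fold higher at 2 DPT and ITGA10, ITGA3, ITGA6 and LAMB3 at least 2-fold lower, so 9 of 24 members moved that far without any molecule or NEUROG2. Of all genes in GFP cells, 5.88% were at least 2-fold higher and 4.64% lower. In FD cells 4 of 23 members were higher and 6 lower by that measure, where 8.94% and 6.94% of all genes were. In N cells 4 of 24 were higher and 2 lower, where 3.67% and 3.21% of all genes were. In NFD cells 5 of 23 were higher and 7 lower, where 11.2% and 6.48% of all genes were. The GFP baseline therefore differed between times, and each fold change above is against GFP of its own time.

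The other genes of the pathway were taken from 3 lists. For comparison, 16.0% to 17.8% of all tested genes rose and 18.8% to 22.3% fell in FD cells. In N cells 25.4% to 27.1% of all tested genes rose and 24.3% to 30.0% fell. In NFD cells 32.1% to 34.1% of all tested genes rose and 31.3% to 33.2% fell. Among 41 genes of the adhesion complex that integrins build on actin, 39 were tested, and 2, 2 and 1 rose and 19, 23 and 24 fell in FD cells. In N cells 10, 9 and 6 rose and 14, 21 and 20 fell, and in NFD cells 5, 9 and 5 rose and 22, 23 and 25 fell. The median log2 fold change of this list in NFD cells was -0.46, -0.48 and -0.67 in the authors' deposited tables. TLN1, which switches integrins on by binding the beta tail, stood at 108, 100 and 96.0 FPKM in the GFP groups and 38.5, 35.4 and 30.0 in NFD cells, and VCL, which ties talin to actin, at 109, 138 and 182 and at 39.1, 32.0 and 31.6. In NFD cells the log2 fold changes were -1.48, -1.5 and -1.68 for TLN1 and -1.47, -2.11 and -2.53 for VCL, all called, in the authors' deposited tables. Falls were not limited to NFD cells. TLN1 fell in FD and N cells at all times, and VCL in FD cells at all times and in N cells at 1 and 2 DPT. PARVB, LIMS2, TNS3 and TGFB1I1, further parts of the complex, also fell at least 2-fold in NFD cells at all times. LIMS2 did so in FD cells as well, but rose in N cells at 0.5 and 1 DPT. NEDD9, a docking protein, fell in FD cells by 1.69, 2.44 and 3.01 on the log2 scale and rose in N cells by 2.1, 1.41 and 0.86 in the authors' deposited tables.

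Among 29 basement membrane genes and laminin partners, 8, 9 and 7 of 21, 24 and 24 tested rose and 8, 13 and 14 fell in NFD cells. Their median log2 fold change in NFD cells was -0.12, -0.39 and -0.62 in the authors' deposited tables. In FD cells 5, 7 and 4 of 19, 20 and 20 rose and 7, 10 and 13 fell, and in N cells 6, 7 and 7 of 18, 21 and 22 rose and 6, 10 and 13 fell. NID2, which bridges laminin and collagen IV, had 79.3, 86.8 and 106 FPKM in the GFP groups, 22.2, 20.0 and 15.2 in N cells and 32.4, 37.6 and 14.9 in NFD cells, and fell in both. NTN4, a netrin that binds laminin gamma chains, fell, with log2 fold changes of -2.52, -3.40 and -2.91 in FD cells and -2.09, -3.53 and -4.39 in NFD cells in the authors' deposited tables. SMOC1, a matrix protein known as a BMP antagonist in Xenopus, went from 0.0971, 0.101 and 0.0960 FPKM in GFP cells to 5.42, 14.3 and 30.8 in FD cells and 1.79, 2.20 and 1.13 in NFD cells, and rose in both. FRAS1, a basement membrane protein of developing epithelium, went from 0.0223, 0.0222 and 0.0298 FPKM in GFP cells to 1.23, 3.34 and 2.24 in NFD cells and rose there. SMOC1 and FRAS1 were far under 1 FPKM in GFP cells and reached it only in other groups, so these changes rest on low GFP levels. NTNG1, a membrane-bound netrin of neurons, rose in NFD cells by 2.14, 4.56 and 5.05 on the log2 scale, and EGFLAM, a dystroglycan ligand, rose in N cells by 1.57, 1.99 and 2.30, in the authors' deposited tables. BCAM, a receptor for LAMA5, fell by 1.41, 1.23 and 1.2 in NFD cells in the authors' deposited tables. HSPG2 also fell at least 2-fold in NFD cells at all times, and COL15A1 in FD cells.

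Of 35 other integrin ligands, 7, 4 and 2 of 23, 24 and 24 tested rose and 12, 16 and 19 fell in NFD cells, with a median log2 fold change of -0.25, -1.22 and -1.54 in the authors' deposited tables. In FD cells 5, 7 and 6 of 21, 23 and 22 rose and 8, 9 and 9 fell, and in N cells 9, 6 and 6 of 23, 24 and 23 rose and 11, 13 and 12 fell. THBS1, thrombospondin 1, stood at 306, 344 and 501 FPKM in GFP cells, 71.0, 136 and 169 in FD cells, 570, 422 and 598 in N cells and 95.9, 67.1 and 47.1 in NFD cells. It was low with the molecules and high without them, whether or not NEUROG2 was present. In NFD cells the log2 fold changes were -4.60, -4.95 and -4.75 for CTGF, a matricellular ligand, and -3.47, -4.09 and -3.69 for CYR61, its relative, in the authors' deposited tables. TGFBI, a ligand of alpha V and beta 1 integrins, rose from 243, 447 and 1050 FPKM in the GFP groups to 1320, 1730 and 2110 in N cells. ICAM1, a ligand of leukocyte integrins, fell in N cells by 1.09, 2.39 and 3.12 on the log2 scale in the authors' deposited tables. MFGE8 fell and VWF, also counted here among endothelial markers, rose at least 2-fold in NFD cells at all times, and SVEP1, a ligand of alpha 9, fell in FD cells.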

How the data were processed

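Stranded total RNA libraries of MRC-5 cells were read from 1 end for 50 bases, per the labels' protocols; a molecule label reads genomic DNA. The submitters' processing notes name TopHat 1.4.1, Cufflinks 2.1.0, Cuffdiff 2.1.0 and GRCh37 (hg19). Per the file headers, the authors deposited 9 tables, each with the FPKM of GFP and of 1 other group, a log2 fold change, a p-value and a q-value, all over 3 libraries per group. Their significance mark equals a q-value at or under 0.05. P-values measure only the spread between libraries, which may be technical. Loci the authors marked as untested were left out of counts, and 26 loci per table whose names had become dates were counted and are not named. Computed here with pandas 2.3.3, numpy 2.4.6 and matplotlib 3.10.9 under Python 3.11.15 were counts, medians, shares of summed FPKM and NFD over N ratios. Simulated data were used to check only the adjustment of p-values and the calls and directions that follow from it. The counts, medians, shares and ratios were not checked in that way. Motifs were searched in RefSeq promoters, which 26 members have. Alternatives were a 1 FPKM filter, a 2-fold minimum, q at or under 0.01, adjustment within a table, centring, and pseudocounts of 1 and 0.1. Members and lists were chosen with earlier results of these data known. Members with values in every group reached 1 FPKM and were called in at least 1 table, and the others are given by count or range. Named pathway genes were called the same way at all times of a condition with at least 2-fold change and 1 FPKM in a group. LAMC3 and ITGB7 were singled out after their values were seen. Values of 1 member are not reported here.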

Additional observations from a re-analysis of the deposited data

How the results depend on the processing

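Counts of members called changed by more than 1.5 times under a minimum change of 2-fold, where 1, 5 and 6 members were called in FD cells at 0.5, 1 and 2 DPT, 9, 12 and 12 in N cells, and 10 and 15 in NFD cells at 0.5 and 2 DPT. With a q-value at or under 0.01, 9 members were called in FD cells at 1 DPT. The added condition makes both counts smaller by construction. The other counts and medians, under these and under the 1 FPKM filter, adjustment within each table, centring and pseudocounts of 1 and 0.1, stayed within 1.5 times or 0.25 log2, and none reversed. With a pseudocount of 1, 55 of the single log2 fold changes of members moved by more than that and 168 did not. No paired analysis was possible because the tables hold 1 value per group, and leaving out replicates was not run for the same reason. Folds of members near 0 or under 1 FPKM in a group, such as ITGA9 and ITGB8, are the least certain.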
